A study of Homo sapiens with 10 samples.

Results

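A set of 197 genes had read counts that set every SAMHD1 knock-out (KO) library apart from every wild-type (WT) library of T47D spheroids, out of 13920 genes listed. T47D is a luminal, hormone receptor-positive human breast cancer cell line, and a spheroid is a compact ball of cells grown on a surface to which they cannot attach. The genes were chosen by value. Counts were divided by the library total and multiplied by 1000000 (CPM, counts per 1000000 counts of the library), and a gene was taken where its 6 KO values lay all above or all below its 4 WT values. In the KO libraries 80 of the 197 genes were higher and 117 were lower. SAMHD1, SPARC and KRT8 were left out by rule, and with the 2 of them that also separated the share of listed genes was 1.43% (0.575% higher and 0.855% lower). Because the contrast of KO with WT chose the genes, its values are given below as a description, without a test. With so few libraries some genes separate with no difference between the groups, about 0.952% of genes if all libraries were alike and independent. A large part of the set can therefore be of that kind. A gene's place in the set is thus not by itself evidence of an effect of the KO on it. Counts of separating genes in the lists below are likewise to be read beside the 1.43% of all listed genes.

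The libraries were made from messenger RNA of unmodified T47D cells (WT, 4 libraries) and of SAMHD1-KO clones A1 (4 libraries) and A2 (2 libraries), all grown as spheroids. In both clones a CRISPR-Cas9 construct had been aimed at exon 5 of SAMHD1, which encodes part of the catalytic HD domain. The labels number the experiments 10, 11, 15 and 16, and clone A2 has libraries from the later pair alone, WT and clone A1 from all 4. Each clone is 1 edited line, so the loss of SAMHD1 and other differences of a clone from its parent cells cannot be told apart. SAMHD1 itself stood at 53.4, 55.2, 49.3 and 56.4 CPM in WT, at 22.2, 22.9, 6.29 and 6.22 in clone A1 and at 24.0 and 21.1 in clone A2. The targeted gene was therefore below WT in every KO library, and in clone A1 it was lower in experiments 15 and 16 than in 10 and 11. Total counts were 40077369 to 51311482 per library. Of 8 luminal epithelial markers 7 were listed, among them ESR1, GATA3 and FOXA1, while KRT19 was not listed, so its level is not known. The 7 listed markers summed to 105 to 120 CPM in WT and 99.0 to 112 CPM in KO. KRT8, which is not among the 8, was at 6.79 to 8.99 CPM in WT and 3.24 to 4.99 CPM in KO. Whether these levels are those of luminal T47D cells was not tested. Of 6 fibroblast markers 2 were listed, COL1A1 and COL3A1, with sums of 18.8 to 26.1 CPM in WT and 11.4 to 18.5 CPM in KO, and their part in the differences below was not tested. ACTA2, the 1 listed of 4 basal or myoepithelial markers, was at 28.7 to 58.7 CPM in WT and 22.4 to 39.6 CPM in KO, and VWF and KDR, the 2 listed of 4 endothelial markers, summed to 0.974 to 1.90 CPM in WT and 1.35 to 1.93 CPM in KO. In such bulk samples fewer cells of a type and less RNA per cell cannot be told apart.

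SAMHD1 breaks down deoxynucleoside triphosphates, the building blocks of DNA, into deoxynucleosides and triphosphate. It is known for limiting virus replication in cells that do not divide, and for its link with innate immune signaling, since inherited loss of SAMHD1 causes the interferon-driven Aicardi-Goutières syndrome. A gene that separates KO from WT libraries need not belong to these pathways, and the separating genes are therefore described by their known roles.

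Most separating genes differed by little. Genes with a count of 0 in a library had been removed by the authors, so a gene lost entirely from any library could not be among them. The median log2 fold change of KO over WT was 0.18 (range 0.095 to 1.01) in the 80 higher genes and −0.28 in the 117 lower genes, whose absolute values ran from 0.093 to 1.53. Over all 197 genes the median absolute change was 0.25, a 1.19-fold difference, against 0.10 for all 13920 genes. An absolute change of at least 0.5 was seen in 31 of the 197 genes (11 higher, 20 lower), compared with 634 of all genes (4.55%). The 8 separating genes with an absolute change of at least 1 were only a small part of the genes of that size, since 62 genes with as large a change did not separate. In an edgeR quasi-likelihood fit of KO against WT, 0 of 13920 genes passed an adjusted p of 0.05 and 1172 (8.42%) had an unadjusted p under 0.05, while DESeq2 called 34 (0.244%). With the experiment number as a block, the edgeR fit called 97 genes in place of 0. Libraries of WT and clone A1 with the same experiment number varied together after group means were removed (correlations of 0.468 to 0.526). Those of the same experiment pair with another number did so nearly as much (0.399 to 0.461), and those of different pairs varied oppositely (−0.387 to −0.530). The fit of 2 groups took no account of the pair, and clone A2 was in the later pair alone. What a number stands for is not given in the labels. All 197 genes were protein coding, and their median WT level of 26.9 CPM lay close to the 28.4 CPM of all genes. In 194 of them the lowest count was at least 10. The other 3 genes were GSTM2, PCDHGA5 and GFRA3, the last of which falls outside the rule for naming genes and was added after its values were seen.

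**Figure D1:**
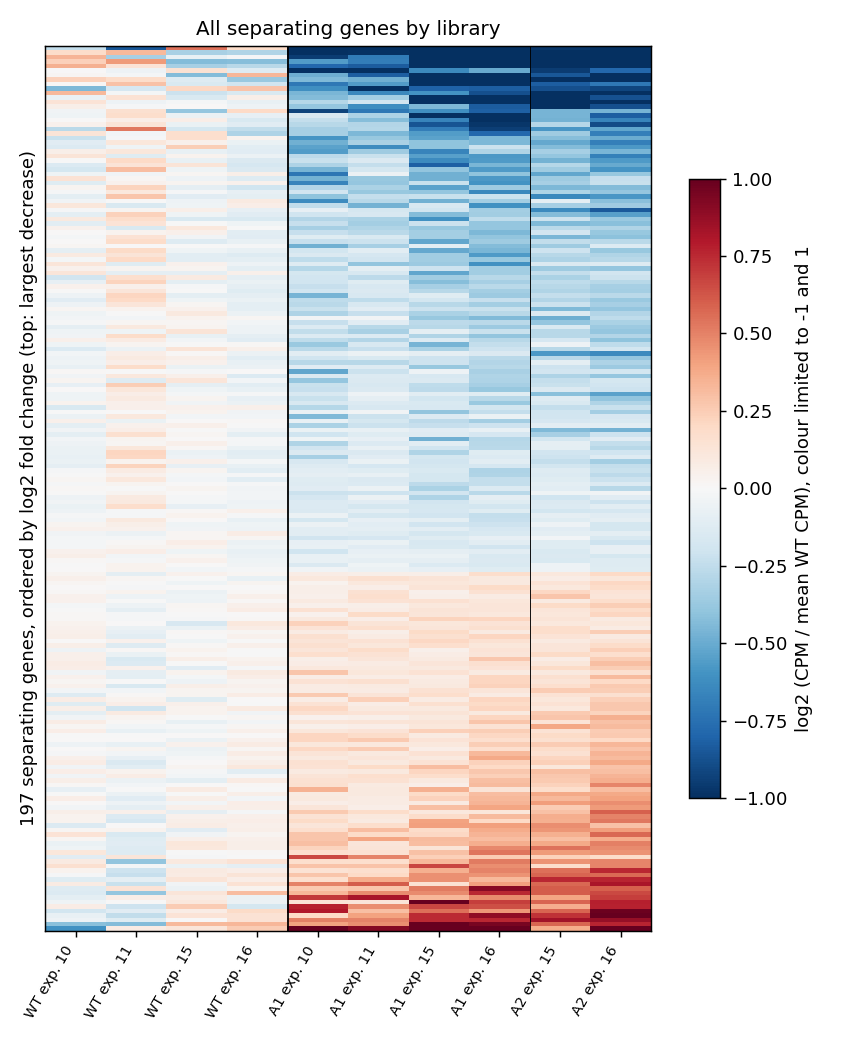
All 197 separating genes (one line each, ordered by log2 fold change) in the 10 libraries, coloured by log2 of CPM over the mean WT CPM and limited to −1 and 1. The 117 lower genes fill the upper part and the 80 higher genes the lower part, and most lines are pale, with a median absolute change of 0.25.

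The gap between the groups was narrow as well. It was measured from the nearest KO to the nearest WT value and had a median of 0.032 on the log2 scale, a 1.02-fold step. Just inside the rule were AGFG1, ANKRD33B and KLHL23 among the higher genes and GCAT, HSPB1 and PLAT among the lower ones. For HSPB1, a small heat shock protein, the lowest WT and the highest KO value were both 51.1 CPM when rounded. Just outside were ARL6IP6, GORASP2 and RNF139 on the higher side and MARCHF2, NAXE and NGRN on the lower side. For ARL6IP6 the highest WT and the lowest KO value were both 32.0 CPM when rounded. The widest gaps were those of SH3BGR, RTN4RL1 and CHODL among the lower genes, at 1.59-, 1.37- and 1.30-fold, and of ZNF160, ZNF611 and PSMD5 among the higher genes, at 1.27-, 1.19- and 1.16-fold.

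The lower genes with the largest change were of unlike function. SH3BGR, which encodes a small glutamic acid-rich protein with a thioredoxin-like fold, lies at chr21:39445865-39515506 (GRCh38). It was at 19.1, 20.9, 13.4 and 13.6 CPM in WT of experiments 10, 11, 15 and 16, at 8.37, 8.43, 6.58 and 5.36 CPM in clone A1 and at 4.26 and 3.04 CPM in clone A2. The log2 fold change was −1.49 (SE 0.27), and the lowest WT value stood clear of the highest KO value, with clone A2 lowest of all. BEX5, at chrX:102153712-102155977, is a member of the brain-expressed X-linked family. It was at 5.89, 3.70, 4.44 and 4.62 CPM in WT, 2.41, 2.88, 1.45 and 1.53 CPM in clone A1 and 1.60 and 0.918 CPM in clone A2, a log2 fold change of −1.38 (SE 0.28). In both genes the clone A1 values of experiments 10 and 11 were above those of experiments 15 and 16. NHSL2, a relative of the actin regulator NHS, followed on the X chromosome with 3.72 to 5.40 CPM in WT and 1.41 to 3.15 CPM in KO (log2 fold change −0.87, SE 0.23).

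Among the other lower genes with a large change, CGA, the alpha subunit shared by the glycoprotein hormones, was at 2.34, 2.67, 1.47 and 1.48 CPM in WT, 1.35, 1.23, 0.557 and 0.511 CPM in clone A1 and 0.456 and 0.693 CPM in clone A2 (log2 fold change −1.32, SE 0.34). WT itself was lower in the later experiments, and the clone A1 libraries of experiments 10 and 11 lay only just below the WT libraries of experiments 15 and 16. RTN4RL1, a lipid-anchored receptor of the Nogo receptor family, ranged from 1.37 to 2.21 CPM in WT and from 0.325 to 1.00 CPM in KO (−1.20, SE 0.28). CHODL, a membrane protein with a C-type lectin domain, ranged from 5.77 to 7.01 CPM in WT and from 0.614 to 4.43 CPM in KO (−1.19, SE 0.46), the widest KO range of these genes. COL9A3, a chain of type IX collagen, was at 4.27 to 5.99 CPM in WT and 1.85 to 3.33 CPM in KO (−0.88, SE 0.17). SEMA7A, a lipid-anchored semaphorin, showed close WT values of 3.10 to 3.35 CPM beside 1.35 to 2.45 CPM in KO (−0.72, SE 0.18).

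Among genes of innate and endosomal defence, BST2 (tetherin), an interferon-induced protein that holds enveloped virus particles on the cell surface, was at 3.07, 2.97, 2.40 and 2.03 CPM in WT. It was at 1.92, 1.88, 1.27 and 1.07 CPM in clone A1 and 0.798 and 1.20 CPM in clone A2, a log2 fold change of −0.96 (SE 0.25). IFI30, an interferon-inducible thiol reductase of the lysosome used in antigen processing, was at 6.86 to 8.39 CPM in WT and 2.96 to 6.01 CPM in KO (−0.85, SE 0.20). UBE2L6, the enzyme that conjugates the ubiquitin-like protein ISG15, was at 4.54 to 5.08 CPM in WT and 3.11 to 4.22 CPM in KO (−0.41, SE 0.12). BST2 and UBE2L6 were the 2 separating genes among 33 listed interferon-stimulated genes (a list without IFI30), whose median log2 fold change was −0.06 with 22 of 33 below 0. No gene of MHC class I presentation (16 listed) or of nucleic acid sensing and Aicardi-Goutières syndrome (14 listed) was among the separating genes, nor was any of 34 genes of interleukin-12 family and NF-kB signaling. Since 1.43% of all listed genes separated, lists of this size can well hold none, so this says little about these pathways.

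CRABP2, which carries retinoic acid to its nuclear receptor, was at 18, 15.9, 16.2 and 15.6 CPM in WT, 13.5, 14.3, 7.18 and 6.24 CPM in clone A1 and 7.48 and 7.46 CPM in clone A2 (−0.82, SE 0.23). Clone A1 was thus much nearer to WT in experiments 10 and 11 than in 15 and 16. VDR, the vitamin D receptor and the only separating gene of 12 luminal transcription factors and steroid receptors, was at 4.35 to 5.14 CPM in WT and 2.39 to 3.89 CPM in KO (−0.58, SE 0.18). Of 35 glutathione and thioredoxin enzymes GSTM2, TXN2 and SOD1 separated, all lower, while the list had a median of −0.01 with 20 genes below and 15 above 0. TXN2 and SOD1 separated in none of the other scalings tried (TMM, DESeq2 size factors, GC trend removed, regional medians removed). GSTM2, a glutathione transferase, had counts as low as 5 and ranged from 0.324 to 0.848 CPM in WT and from 0.102 to 0.296 CPM in KO (−1.53, SE 0.36). SOD1, the cytosolic superoxide dismutase, was abundant and differed little, with 223 to 239 CPM in WT and 199 to 221 CPM in KO (−0.15, SE 0.06).

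**Figure D2:**
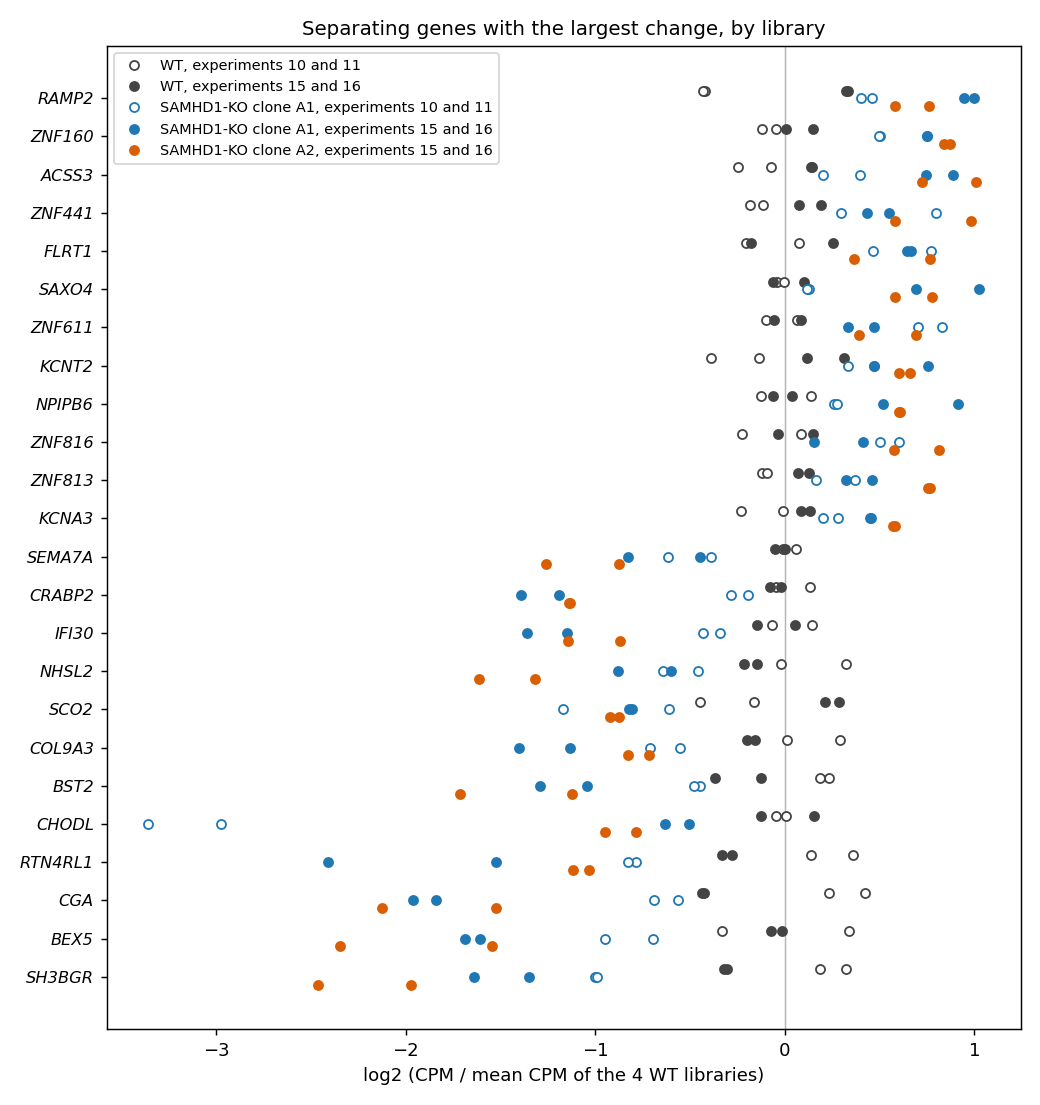
The 12 higher and 12 lower separating genes with the largest change and at least 10 counts in every library, as log2 of CPM over the mean of the 4 WT libraries (grey, open for experiments 10 and 11, filled for 15 and 16), with clone A1 in blue and clone A2 in orange. CHODL in clone A1 of experiments 10 and 11 lies farthest left, and CRABP2 and IFI30 in those libraries lie nearer to WT than in the other KO libraries.

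The higher genes with the largest change were mostly of low level. RAMP2, a partner protein of the calcitonin receptor-like receptor that makes it respond to adrenomedullin, was at 0.774, 0.769, 1.30 and 1.31 CPM in WT and at 1.37, 1.43, 2.07 and 2.00 CPM in clone A1, with 1.55 and 1.75 CPM in clone A2 (log2 fold change 0.69, SE 0.22). WT and clone A1 were both higher in the later experiments, and the highest WT value of 1.31 CPM lay close below the lowest KO value of 1.37 CPM. ACSS3, a mitochondrial acyl-CoA synthetase, was at 10.6 to 13.9 CPM in WT and 14.5 to 25.3 CPM in KO (0.67, SE 0.15). The potassium channel genes KCNT2, at 3.72 to 6.04 CPM in WT, and KCNA3, at 5.16 to 6.63 CPM in WT, were at 6.14 to 8.22 and 6.96 to 9.05 CPM in KO. FLRT1, a leucine-rich repeat membrane protein, was at 0.708 to 0.973 CPM in WT and 1.05 to 1.39 CPM in KO (0.61, SE 0.18). SAXO4, a microtubule-associated protein of cilia, was at 0.935 to 1.05 CPM in WT and 1.06 to 1.98 CPM in KO (0.57, SE 0.21). NPIPB6 (0.53, SE 0.17) and PCDHGA5 (1.01, SE 0.27) share near-identical sequence or exons with other genes of their families, so that their counts are uncertain. PCDHGA5, a protocadherin with as few as 7 counts, was at 0.151 to 0.273 CPM in WT and 0.296 to 0.627 CPM in KO. PSMD5, an assembly chaperone of the proteasome and the only separating gene of 45 proteasome genes, was at 21.0, 19, 21.4 and 21.5 CPM in WT and between 25.1 and 27.3 CPM in KO (0.31, SE 0.06).

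Zinc finger genes made up 5 of the 12 higher genes with the largest change. The large class to which most of them belong pairs DNA-binding zinc fingers with a KRAB domain and is known for silencing retroelements and other genes. Of 510 genes with a zinc finger symbol 8 were higher and 4 were lower, and the median log2 fold change of the class was 0.02. ZNF160, ZNF611, ZNF816 and ZNF813 lie within 1 stretch of chromosome 19, between 52702813 and 53496255. The 100 bases upstream of their annotated starts (RefSeq, GRCh38.p14) are shown because these 4 of the 12 genes listed in that stretch separated in the same direction. Capitals mark matches on either strand to the GC box GGGCGG and to CCAAT.

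ZNF160: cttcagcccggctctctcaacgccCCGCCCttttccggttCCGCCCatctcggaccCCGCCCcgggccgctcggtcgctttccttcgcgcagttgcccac
ZNF611: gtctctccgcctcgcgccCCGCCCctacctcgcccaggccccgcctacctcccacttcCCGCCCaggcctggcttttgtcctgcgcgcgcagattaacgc
ZNF813: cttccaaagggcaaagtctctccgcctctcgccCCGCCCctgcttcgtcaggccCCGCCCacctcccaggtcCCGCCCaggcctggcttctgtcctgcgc
ZNF816: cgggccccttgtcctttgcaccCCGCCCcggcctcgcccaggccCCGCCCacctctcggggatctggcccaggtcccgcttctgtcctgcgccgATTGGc

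These windows lie at chr19:53103423-53103522 (ZNF160, minus strand), chr19:52735045-52735144 (ZNF611, minus strand), chr19:53467633-53467732 (ZNF813, plus strand) and chr19:52962882-52962981 (ZNF816, minus strand). The longest run shared by ZNF611 and ZNF813 was 19 bases, that of ZNF611 and ZNF816 18 bases and that of ZNF813 and ZNF816 17 bases, while ZNF160 shared at most 12 bases with any of them. The GC box occurred in all 4 windows, and in the longer windows from 250 bases upstream to 50 downstream it was found in 71.9% of 64 higher and 67.0% of 88 lower genes with an entry, beside 70.0% of 11366 genes. The shares of higher and lower genes with the other motifs were 29.7% and 34.1% for CCAAT (36.5% of all), 6.25% and 10.2% for TATAAA (5.85%), 3.13% and 11.4% for CACGTG (10.2%) and 4.69% and 5.68% for TGANTCA (4.27%).

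ZNF160 was at 6.77, 6.45, 7.04 and 7.76 CPM in WT, 9.94, 9.88, 11.8 and 11.8 CPM in clone A1 and 12.5 and 12.8 CPM in clone A2 (log2 fold change 0.69, SE 0.10). ZNF611 was at 5.50, 6.15, 6.24 and 5.65 CPM in WT, 9.59, 10.4, 7.42 and 8.17 CPM in clone A1 and 7.73 and 9.52 CPM in clone A2 (0.57, SE 0.12). Both genes were higher in every KO library by a margin wider than the range of the WT values, yet clone A1 of experiments 10 and 11 was the lower KO pair for ZNF160 and the higher one for ZNF611. ZNF813 was at 6.77 to 8.06 CPM in WT and 8.26 to 12.5 CPM in KO, and ZNF816 at 1.60 to 2.07 CPM in WT and 2.07 to 3.28 CPM in KO. The other 8 genes listed in this stretch of 0.793 Mb all had fold changes above 0, with a median of 0.15, inside a 10 Mb region whose median was −0.11. Related zinc finger genes can share reads, and how reads that match several genes were counted is not given in the sources used here. ZNF441, on the short arm of the same chromosome, was at 3.01 to 3.90 CPM in WT and 4.19 to 6.75 CPM in KO (0.61, SE 0.15).

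The separating genes among ribosomal proteins and oxidative phosphorylation subunits were all lower. Of 84 cytosolic ribosomal protein genes 5 were lower (RPS9, RPL36 and RPS26 the most changed), 72 had a fold change below 0 and the median log2 fold change was −0.13. With TMM or DESeq2 size factors RPL36 and RPS26 still separated, and RPS9, RPS20 and RPL37A did not. RPL36 was at 1039, 1131, 1035 and 956 CPM in WT and between 822 and 943 CPM in KO (−0.28, SE 0.07). RPS9 was at 705, 696, 697 and 641 CPM in WT and between 522 and 640 CPM in KO, so that a single WT library, that of experiment 16, set its gap. RPS26, whose many processed copies make its counts uncertain, was at 324 to 339 CPM in WT and 268 to 313 CPM in KO. Of 79 oxidative phosphorylation subunits NDUFS7 and NDUFA7 of complex I and ATP5MC2 of the ATP synthase were lower, with log2 fold changes of −0.27, −0.20 and −0.14 and 55 of 79 genes below 0. MRPL54 was the only separating gene of 77 mitochondrial ribosomal proteins (−0.25), and EIF4A3, the helicase of the exon junction complex, that of 104 translation factors and tRNA synthetases (−0.18). SCO2, a copper chaperone needed to assemble cytochrome c oxidase, had the largest change among mitochondrial proteins named here, at 6.17, 7.5, 9.73 and 10.3 CPM in WT and 3.74 to 5.50 CPM in KO (−0.87, SE 0.16). None of the 13 listed genes encoded by the mitochondrial genome separated, and all 13 had pooled fold changes above 0 (median 0.12). The clones differed in direction, since the median of these 13 genes against WT of the same experiments was 0.06 and 0.23 in clone A1 of the earlier and later experiments and −0.15 in clone A2. All 13 were below 0 in clone A2 against clone A1 (median −0.39), and 4 of them were called lower.

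In nucleotide metabolism, TK1, which phosphorylates thymidine for DNA synthesis and so feeds the pool that SAMHD1 depletes, was at 83.8, 97.6, 79.0 and 79.1 CPM in WT. It was at 71.1, 74.3, 66.8 and 65.3 CPM in clone A1 and 68.5 and 70.2 CPM in clone A2, a log2 fold change of −0.31 (SE 0.07). TK1 was the only separating gene of 21 enzymes of deoxynucleotide pools, of which 12 had fold changes above 0. No separating gene was found on lists of 62 cell cycle and DNA replication genes, 55 DNA repair genes and 52 histones, beside 1.43% of all listed genes. Lists of this size can well hold none, and they do not hold every gene of these processes. CKS1B (higher) and UBE2C, E2F8 and NTHL1 (lower) separated and are not on them. These genes were named after their values were seen.

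Growth factor receptors separated in both directions. EGFR, the epidermal growth factor receptor, was at 37.8, 34.4, 35.0 and 37.4 CPM in WT and between 39.1 and 43.1 CPM in KO (log2 fold change 0.17, SE 0.05). FGFR4, a fibroblast growth factor receptor, was at 10.1, 11, 10.2 and 9.69 CPM in WT and between 6.57 and 8.96 CPM in KO (−0.39, SE 0.10). These were the 2 of 27 receptor tyrosine kinase and growth hormone or prolactin genes. DUSP9, a phosphatase that inactivates MAP kinases, was at 24.2 to 29.0 CPM in WT and 20.6 to 22.4 CPM in KO (−0.34, SE 0.06). Of 38 actin-binding and YAP or SRF target genes 2 separated, with 30 of the 38 below 0 and a median of −0.07. CNN3, a calponin, was at 166 to 168 CPM in WT and 174 to 190 CPM in KO, while ACTG1, cytoplasmic gamma actin, had a log2 fold change of −0.17.

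The remaining lists held single or few separating genes, and many of these depended on the scaling. Of those named here STX18, KLHL23, RAB6D, SLC12A9, RNF207 and PRKRIP1 separated in none of the 4 other scalings, and RASL11A in neither TMM nor DESeq2 scaling. Of 312 ubiquitin enzyme genes 6 were lower, UBE2L6, RNF207 and UBE2QL1 the most changed with log2 fold changes of −0.41, −0.37 and −0.32, and 1 was higher, the cullin adaptor KLHL23 at 0.12. Among the solute carriers SLC12A9 (−0.44) and the sulfate transporter SLC26A11 (−0.22) were lower. Of 251 small GTPase genes and regulators RAB6D (0.39) and TBC1D14 (0.18) were higher and 3 were lower, led by RASL11A (−0.22). STX18, a syntaxin of the endoplasmic reticulum, was the only separating gene of 179 in vesicle transport (0.14), HSPB1 that of 84 chaperones (−0.43) and MVK, mevalonate kinase, that of 40 sterol and lipid genes (−0.23). PRKRIP1 (−0.28) and STK11IP (−0.26) entered the list of 284 kinases and phosphatases by their symbols and are kinase-interacting proteins. Splicing factors (103), hypoxia and glycolysis genes (37), estrogen receptor targets (18), AP-1 and immediate early genes (24) and epithelial identity and mesenchymal genes (15) held none.

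The size of the effect was compared between the clones and the experiment pairs. The rule required every library of both clones to lie beyond all WT libraries, so it set a sign and a least effect in each clone and pair and favoured genes with a small spread. Against WT of the same experiments, the median absolute log2 fold change of the 197 genes was 0.21 in clone A1 of experiments 10 and 11, 0.23 in clone A1 of experiments 15 and 16 and 0.27 in clone A2. The same medians over all genes were 0.10, 0.12 and 0.14, which were larger in the same order.

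**Figure D3:**
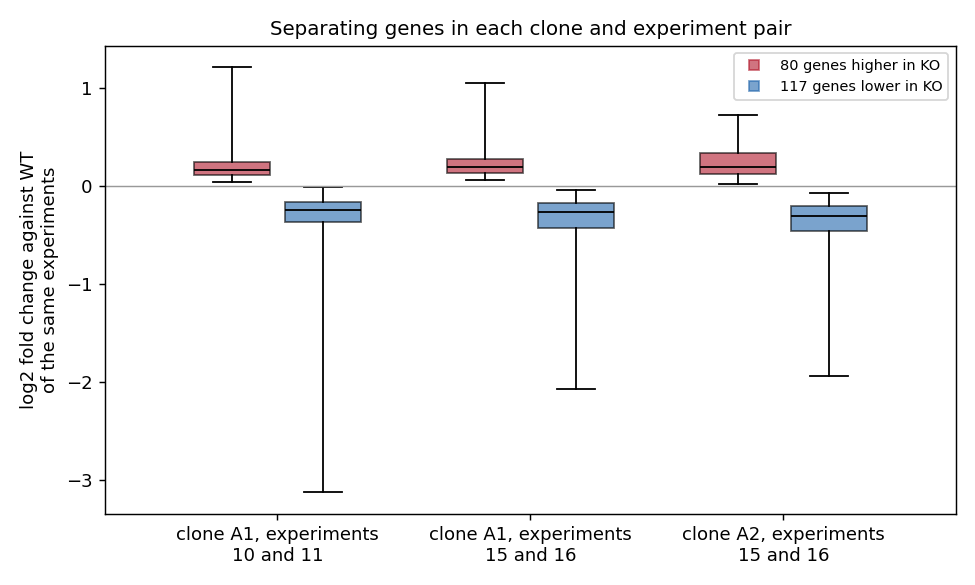
Log2 fold change of the 80 higher (red) and 117 lower (blue) separating genes against WT of the same experiments, for clone A1 in each experiment pair and for clone A2. Boxes span the quartiles with the median as a line and whiskers reach the extremes, the lowest of which, CHODL in clone A1 of experiments 10 and 11, is at −3.13.

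Clone A2 was tested against clone A1 within experiments 15 and 16 with edgeR's quasi-likelihood test over all genes. Of the 197 genes 7 passed an adjusted p of 0.05 (3.55%, beside 4.14% of all genes), and 19 had an unadjusted p under 0.05, beside 16.2% of all genes. The shares of this comparison and of the interaction below come from values that the rule had selected. All 7 were genes lower in KO that were lower again in clone A2, a direction called in 3.07% of all genes. TXN2, the thioredoxin of mitochondria, was at 66.2, 70.7, 68.2 and 65.0 CPM in WT, 62.7, 64.8, 63.3 and 61.2 CPM in clone A1 and 45.3 and 43.5 CPM in clone A2. Its clone A1 values lay just below WT, and clone A2 fell by 0.54 on the log2 scale relative to clone A1 (SE 0.07, adjusted p = 0.000255). GCAT, a mitochondrial enzyme of threonine breakdown, was at 22.6 and 20.5 CPM in clone A1 and 16.7 and 14.5 CPM in clone A2 of these experiments and fell by 0.52 (SE 0.10, adjusted p = 0.00538). SH3BGR fell by 0.77 (SE 0.16, adjusted p = 0.00755) and NHSL2 by 0.78 (SE 0.21, adjusted p = 0.0450). The other genes called, named after their values were seen, were RRP7A (−0.42), PATZ1 (−0.42) and MSX2 (−0.45).

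TXN2, GCAT, RRP7A and PATZ1 lie on chromosome 22, where clone A2 differed from clone A1 as a whole. Of the 318 genes listed there 313 were below 0 in clone A2 against clone A1, 241 were called lower, and the median log2 fold change was −0.51. Chromosome 22 held 41.8% of the 576 genes called in that comparison. Against WT the median of chromosome 22 was −0.49 in clone A2, 0.01 in clone A1 of experiments 15 and 16 and −0.06 in clone A1 of experiments 10 and 11. The 5 separating genes of chromosome 22, these 4 and SCO2, were all lower in KO. Against WT of the same experiments, clone A2 was at −0.63 for TXN2, −0.78 for GCAT, −0.51 for RRP7A and −0.49 for PATZ1, beside the chromosome's median of −0.49. A lower level of these 4 genes in clone A2 and the lower level of the whole chromosome cannot be told apart. SCO2 lay farther below WT than the chromosome's median in clone A2 (−1.20, SE 0.16), and it was also well below WT in clone A1 of experiments 15 and 16 (−1.06, SE 0.16).

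Between WT of experiments 15 and 16 and WT of experiments 10 and 11, 4 of the 197 genes were called (2.03%, beside 16.4% of all genes). The number called changed when a WT library was left out. That leaves 1 library in its group, so the change cannot show which library the calls rest on. A gene whose WT values differ strongly is less likely to separate, so a low share follows from the rule. KCNT2 rose by 0.47 (SE 0.14, adjusted p = 0.0336) and SCO2 by 0.54 (SE 0.16, adjusted p = 0.0273). SH3BGR fell by 0.57 (SE 0.13, adjusted p = 0.00822) and CGA by 0.77 (SE 0.24, adjusted p = 0.0370). For KCNT2, SH3BGR and CGA the WT libraries of the later experiments thus stood nearer to the KO levels.

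The effect of clone A1 was then compared between the experiment pairs by an interaction term. It was called for 2 of the 197 genes (1.02%, beside 2.5% of all genes), and for these the rule had already fixed that both effects had one sign. With the experiment number as a block it was called for 6 of the 197 genes and for 1247 of all genes. CHODL, at chr21:17917340-18267370, was at 6.32 and 6.09 CPM in WT and 0.614 and 0.800 CPM in clone A1 of experiments 10 and 11. In experiments 15 and 16 it was at 7.01 and 5.77 CPM in WT, 4.06 and 4.43 CPM in clone A1 and 3.26 and 3.65 CPM in clone A2. The log2 fold change of clone A1 was −3.13 (SE 0.20) in the earlier and −0.59 (SE 0.16) in the later pair, a difference of 2.55 (SE 0.26, adjusted p = 3.8e-05). CRABP2 went the other way, from −0.28 (SE 0.11) to −1.24 (SE 0.11), a difference of −0.95 (SE 0.15, adjusted p = 0.00375), and clone A2 was at −1.14. Clone A1 was thus farthest below WT in the earlier experiments for CHODL and in the later ones for CRABP2.

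The separating genes were unevenly spread over the genome. Chromosome 19 held 21 lower and 6 higher genes, chromosome 17 held 18 and 6, and chromosome 7 held 15 and 6, while chromosome 4 held 7 higher and no lower gene. The lower genes were 2.16%, 2.16% and 2.25% of the genes listed on chromosomes 19, 17 and 7, beside 0.855% of all genes. The higher genes were 0.619%, 0.721% and 0.900% there, beside 0.575%. On chromosome 4 they were 1.34%, close to the 1.43% of all genes that separated in either direction. When the genome was divided into regions of 10 Mb, 110 of 308 regions held a separating gene, and the 7 regions with 5 or more held 59 of the 197 genes (29.9%) beside 6.74% of all genes.

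**Figure D4:**
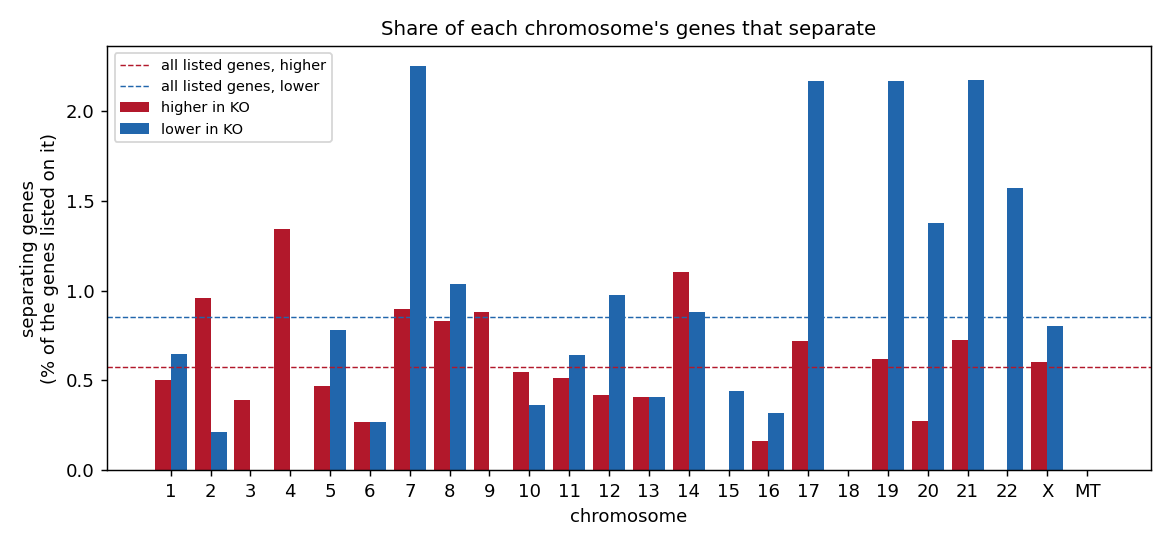
Separating genes as a percentage of the genes listed on each chromosome, higher in KO in red and lower in blue, with dashed lines at the shares over all listed genes. Lower genes exceed 2% on chromosomes 7, 17, 19 and 21, and chromosomes 3, 4 and 9 hold higher genes alone.

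In most of these places the other genes differed in the same direction as the separating ones. Chromosome 19 had a median of −0.18 over its 970 listed genes. Its first 10 Mb held 8 lower genes, among them RPL36, NDUFS7, NDUFA7 and MRPL54, and 175 of the other 201 genes there were below 0 (median −0.19). Between 40 and 50 Mb it held 7 lower genes, with 190 of the other 222 below 0 (median −0.20). In WT of the later against the earlier experiments, with no difference in genotype, the medians of all genes in these regions were −0.21 and −0.22, as large as the medians of all their genes in KO against WT (−0.19 and −0.21). Against WT of the same experiments, the medians of the first region were −0.13 and −0.19 in clone A1 of the earlier and later experiments and −0.17 in clone A2, and those of the second were −0.12, −0.21 and −0.21. Stretches on 3 other chromosomes were looked at more closely. The ends of the stretches were set by the outermost separating genes after values were seen, and their counts are descriptions. At chr7:100063837-102671663, 13 of 62 listed genes separated, all lower, from ZNF3 to POLR2J2, and 48 of the other 49 also had fold changes below 0. The median of the stretch was −0.28 in KO against WT, −0.24 in clone A1 of experiments 10 and 11, −0.30 in clone A1 of experiments 15 and 16, −0.24 in clone A2 and −0.16 in WT of the later against the earlier experiments. At chr17:74432088-82945914, which holds TK1, EIF4A3 and ACTG1, 16 of 148 genes were lower, and 117 of the other 132 had fold changes below 0 with a stretch median of −0.15. At chr4:499210-7033114, which holds STX18, TBC1D14 and the histone methyltransferase gene NSD2, 7 of 66 genes were higher, and 50 of the other 59 were above 0 with a median of 0.13. Over the other genes alone, without the separating ones, the medians were −0.28, −0.14 and 0.12 on chromosomes 7, 17 and 4.

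When the median of each 10 Mb region was removed from every library, a setting chosen after the data were seen, none of the 13 genes of chromosome 7 and none of the 7 of chromosome 4 separated any longer. Of the 16 genes on chromosome 17 the 3 that remained included TK1, and the 4 zinc finger genes of chromosome 19 all remained. In all, 84 of the 197 genes still separated. Of the 31 genes with an absolute change of at least 0.5, 27 did, among them SH3BGR, BEX5, CGA, CHODL, BST2, IFI30 and CRABP2 but not SCO2 or ZNF441.

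Base composition differed between the directions. The median GC content of the transcripts was 44.8% in the higher genes and 57.6% in the lower genes, beside 48.6% in all genes. The higher genes also had longer transcripts (median 4507 bases) and the lower genes shorter ones (1919 bases) than all genes (3384 bases). With all genes cut into 5 equal bins by GC content, the bin with the highest held 55 lower and 3 higher genes, and the bin with the lowest held 2 lower and 22 higher ones.

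**Figure D5:**
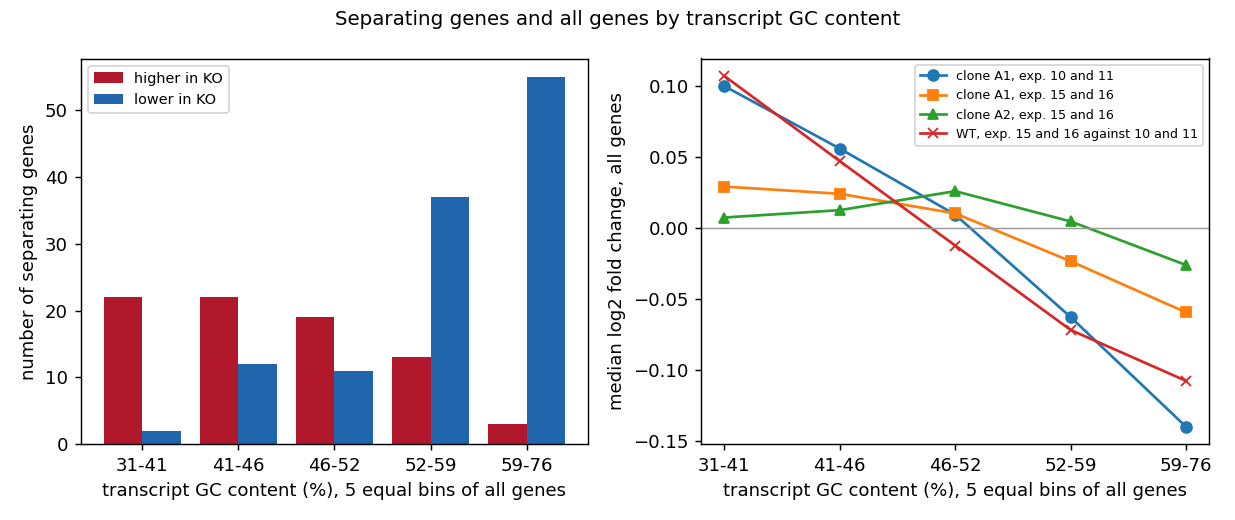
Left, number of higher (red) and lower (blue) separating genes in 5 equal bins of all genes by transcript GC content. Right, median log2 fold change of all genes in each bin for each clone and experiment pair against WT and for WT between the pairs. The lower genes climb from 2 to 55 across the bins, and the lines of clone A1 in experiments 10 and 11 and of WT between the pairs fall most.

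A trend with GC content was present over all genes too. From the lowest to the highest bin, the median log2 fold change went from 0.10 to −0.14 in clone A1 of experiments 10 and 11, from 0.03 to −0.06 in clone A1 of experiments 15 and 16 and from 0.01 to −0.03 in clone A2. WT of the later against the earlier experiments, which shares its earlier libraries with the first of these comparisons, went from 0.11 to −0.11 with no difference in genotype. With a smooth trend with GC content removed from each library, also chosen after the data were seen, 109 of the 197 genes still separated. Of the 31 genes with a change of at least 0.5, 29 did. RPL36, TK1, EGFR and VDR stayed separated with the trend removed, while RPS9, NDUFS7, ATP5MC2, HSPB1 and CNN3 did not. Of the 4 zinc finger genes of the chromosome 19 stretch 3 stayed separated, and ZNF813 did not. The part of base composition and of chromosome position in the differences between KO and WT was not tested.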

How the data were processed

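The 10 libraries came from T47D spheroids (WT 4, clone A1 4, clone A2 2). The authors used the TruSeq Stranded mRNA kit and aligned reads with HISAT2 to GRCh38 (NCBI annotation), and HISAT2, StringTie and GRCh38 also stand in the submitters' processing notes. The counting program and its strand setting are not given in the sources used here, so a gene and its antisense or overlapping partner cannot be told apart (110 of the 197 genes overlap another annotated gene). The deposited values are raw counts per NCBI gene identifier, from which the authors had removed genes with a count of 0. Of 13920 genes 13885 had a symbol and position in the NCBI table and 13803 a canonical GENCODE 44 transcript for length and GC content.

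CPM was the count divided by the library total. Fold changes and SE of KO against WT came from edgeR 4.0.16 in R 4.3.3 (TMM, robust quasi-likelihood fit of 2 groups). The tested comparisons came from 1 fit of 5 groups of 2 libraries (WT and clone A1 in each experiment pair, clone A2 in experiments 15 and 16), with Benjamini-Hochberg adjustment across the 13920 genes and a threshold of 0.05. DESeq2 1.42.0 (Wald test), limma 3.58.1 (trend, prior count 2), RLE normalization, filters on low counts, the experiment number as a replicate block and each library left out in turn were alternatives. Removing a loess trend with GC content (span 0.3) or the medians of 10 Mb regions with at least 20 genes was added after the data were seen. The fit of 5 groups was also run on simulated counts with set differences between clone A2 and clone A1, and the outcome is not given here.

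The genes and lists were chosen with earlier results of these data known. Named were, in each direction, the 12 genes with the largest change and a lowest count of at least 10, the 3 with the widest and 3 with the narrowest gap and the 3 nearest to separating. Also named were the separating genes of each list (all if 4 or fewer, otherwise the 3 with the largest change) and up to 4 called genes per comparison and direction. The study describes biological duplicates, and the labels do not say what an experiment number stands for beyond a replicate. Some genes that the rule or the lists name are not reported here.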

Additional observations from a re-analysis of the deposited data

Results flagged for a closer look

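Among the named genes, 126 groups of 4 libraries were searched for a library far from the other 3 of its group, by the share of the group's range that its gap to the nearest library takes. Chance gives such a library in about 1 in 20 groups, and 5 were found. In WT of experiment 10, RASL11A (4.45 CPM, share 0.93) and UBE2L6 (4.54 CPM, share 0.885) were below the other WT libraries. In WT of experiment 16, RPS9 was low at 641 CPM (share 0.867), and in WT of experiment 11 STK11IP was high at 20.9 CPM (share 0.96). In clone A1 of experiment 16, ATP5MC2 was low at 265 CPM (share 0.829). For RASL11A, UBE2L6 and RPS9 the lone library was the WT library nearest to the KO values.

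For CHODL the difference of clone A1 from WT was not the same in the 2 experiment pairs, by 2.546 on the log2 scale (15 and 16 minus 10 and 11), and for CRABP2 it changed by −0.9521. Clone A2 differed from clone A1 for NHSL2 (log2 fold change −0.7763), SH3BGR (−0.7698), TXN2 (−0.54) and GCAT (−0.5226), and each was lower in both clone A2 libraries than in every clone A1 library.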

How the results depend on the processing

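The number of separating genes was 208 with TMM-scaled CPM (160 shared with the 197), 206 with DESeq2 size factors (157 shared), 208 with the GC trend removed (109 shared), 165 with regional medians removed (84 shared) and 197 with either filter on low counts. In all 4 other scalings 59 of the 197 genes separated. Leaving out 1 library gave 223 to 505 genes, since fewer libraries separate more easily, the most (505) when WT of experiment 16 was dropped, then 433 (clone A1, experiment 11), 415 (WT, 10), 359 (clone A1, 10), 306 (WT, 11) and 303 (clone A1, 15). The median absolute change stayed between 0.2206 and 0.2684. Of 756 alternative fold changes of named genes 740 moved by less than the spread between replicates, 16 by more and none changed sign. CHODL ranged from −0.98 without clone A1 of experiment 10 to −1.65 with the replicate block.

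For clone A2 against clone A1 in edgeR, leaving out 1 library gave 2 to 8 separating genes (2 without clone A2 of experiment 16, 3 without clone A1 of experiment 15) and 268 to 959 of all genes. For WT between the pairs it gave 0 to 22 (22 without WT of experiment 10, 0 without WT of experiment 15 or of 16, 2 without WT of experiment 11) and 820 to 3658 of all genes. For the interaction it gave 2 to 4 and 88 to 1123. DESeq2 called 535 of all genes for the interaction. A group left with 1 library was assumed to vary like the others.

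The experiment number as a replicate block gave 1213 genes for clone A2 against clone A1 (8 separating) and 1247 for the interaction (6 separating), and for KO against WT it called 97 genes in place of 0. Libraries of one experiment correlated at 0.468 to 0.526 between WT and clone A1, after group means were removed, and each WT and clone A1 library correlated best with its own number in the other group, a hint from the data. Libraries of the same pair with another number came close, at 0.399 to 0.461. With clone A2 the values for the same number were 0.0080 to 0.159, which its 2 libraries can hardly inform. The labels do not say that a number marks a shared batch, so the numbers were not taken to pair the libraries. The KO libraries come from 2 clones, and clone A2 from 2 libraries of 1 experiment pair. Depth gave at least 10 counts in every library for 194 of the 197 genes.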
